A study of Rattus norvegicus with 20 samples.

Results

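Heat shock proteins and chaperones were followed in sprouting and non-sprouting cortical neurons of young rats after stroke. A gene was a member if its name on the array, without a trailing "predicted" or "mapped", began with Hspa, Hspb, Hspc, Hspd, Hspe or Hsph, or was a Dnaja, Dnajb or Dnajc with a number, a gene from Cct2 to Cct8, or a gene from Bag1 to Bag5. This gave 52 genes on 82 array features, out of 36459 genes on 41012 features. All 52 passed the filter on brightness and were tested among 33210 genes. No Hsph gene was among them. The members are 11 Hsp70 genes, 2 Hsp90 genes, 2 Dnaja, 5 Dnajb and 10 Dnajc genes, which encode J-domain proteins, 4 Bag genes, 6 small heat shock genes, 2 genes of the mitochondrial chaperonin, 7 subunits of the cytosolic chaperonin TRiC and 3 cofactors or namesakes.

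The rats were 2 months old and all had a stroke. Cholera toxin B labelled with Alexa 488 was injected beside the infarct, where axons sprout, and the same toxin labelled with Alexa 647 was placed at that site 7 or 21 days later. Tracer is carried back from axon endings to the cell body, and the labels divide the captured cells into sprouting and non-sprouting neurons. About 300 neurons of each kind were cut out by laser 7 days after the second tracer, and their RNA went through 2 rounds of T7 amplification. Both cell types of an animal were hybridised together on a 2-colour array, and again with the dyes swapped. The day 7 and day 21 cohorts were separate, with 5 animals and 10 arrays each. A ratio here is the log2 of the sprouting signal over the non-sprouting signal within an animal, averaged over its 2 arrays. Non-sprouting neurons of the same stroke-bearing animal are the control, and no neurons of uninjured rats were analysed here.

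Chaperones keep proteins folded. Hsp70 proteins bind short stretches of unfolded chains, J-domain proteins bring the clients and start the ATP cycle of Hsp70, and Bag proteins release them. Hsp90 then finishes the folding of kinases and receptors, TRiC folds actin and tubulin, small heat shock proteins hold unfolded proteins against clumping, and Hspd1 with Hspe1 folds proteins inside mitochondria. In the heat shock response the factor Hsf1 binds inverted repeats of nGAAn in chaperone promoters, while stress in the endoplasmic reticulum acts through other elements on genes such as Hspa5 and Dnajb9. In injured brain the inducible Hsp70, encoded by Hspa1a and Hspa1b, is a widely used marker of stressed cells.

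Promoters of 43 of the 52 members were matched by symbol in RefSeq (GRCr8), each a window of 300 bases that spans the gene start, most of it upstream. RefSeq promoters were not used here for Hspb2, Hsp90aa1, Dnajc2, Hspa12a, Bag4, Hspa1b, Dnaja2, Dnajc11 and Tmem132a. The 6 promoters below are shown because they belong to the members the results come back to, and because they differ in their stress elements. They are written 5′ to 3′ along the gene's strand. Capitals mark the heat shock repeats GAANNTTC and TTCNNGAA, and in Hspa5 the endoplasmic reticulum stress element, which is CCAAT and CCACG with any 9 bases between them.
Hspa8, chr8:50080264-50080563, plus strand: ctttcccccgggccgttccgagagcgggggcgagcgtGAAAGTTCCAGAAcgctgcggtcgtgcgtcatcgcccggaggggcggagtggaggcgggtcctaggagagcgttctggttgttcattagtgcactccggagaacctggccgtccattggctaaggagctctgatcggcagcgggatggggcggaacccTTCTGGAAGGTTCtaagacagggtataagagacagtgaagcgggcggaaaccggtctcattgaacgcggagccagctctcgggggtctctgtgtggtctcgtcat
Hspd1, chr9:64083988-64084287, minus strand: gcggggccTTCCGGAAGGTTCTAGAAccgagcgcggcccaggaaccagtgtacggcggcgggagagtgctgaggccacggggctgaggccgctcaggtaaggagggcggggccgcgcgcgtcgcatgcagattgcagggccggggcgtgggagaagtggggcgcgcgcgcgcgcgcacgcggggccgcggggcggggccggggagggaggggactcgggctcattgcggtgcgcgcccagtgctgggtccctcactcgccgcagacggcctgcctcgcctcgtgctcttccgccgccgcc
Dnaja1, chr5:60638154-60638453, plus strand: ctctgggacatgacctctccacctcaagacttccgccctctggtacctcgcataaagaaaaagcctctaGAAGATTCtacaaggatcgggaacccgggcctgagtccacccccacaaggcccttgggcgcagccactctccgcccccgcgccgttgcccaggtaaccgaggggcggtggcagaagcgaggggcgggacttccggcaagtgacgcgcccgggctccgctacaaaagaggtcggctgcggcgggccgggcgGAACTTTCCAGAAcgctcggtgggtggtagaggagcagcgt
Cct5, chr2:84313724-84314023, minus strand: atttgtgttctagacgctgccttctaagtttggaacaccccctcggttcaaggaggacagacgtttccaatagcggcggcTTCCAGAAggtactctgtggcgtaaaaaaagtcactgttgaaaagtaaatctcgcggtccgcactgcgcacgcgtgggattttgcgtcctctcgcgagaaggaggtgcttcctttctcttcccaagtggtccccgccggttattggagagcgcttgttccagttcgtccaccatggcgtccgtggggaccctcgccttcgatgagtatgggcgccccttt
Hspa5, chr3:38452766-38453065, plus strand: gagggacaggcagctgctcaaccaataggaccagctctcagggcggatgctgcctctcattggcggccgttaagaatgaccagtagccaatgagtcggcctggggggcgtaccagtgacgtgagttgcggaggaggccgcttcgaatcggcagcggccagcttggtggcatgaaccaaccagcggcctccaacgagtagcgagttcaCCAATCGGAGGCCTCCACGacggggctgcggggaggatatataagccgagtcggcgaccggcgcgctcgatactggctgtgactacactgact
Dnajb9, chr6:67002002-67002301, minus strand: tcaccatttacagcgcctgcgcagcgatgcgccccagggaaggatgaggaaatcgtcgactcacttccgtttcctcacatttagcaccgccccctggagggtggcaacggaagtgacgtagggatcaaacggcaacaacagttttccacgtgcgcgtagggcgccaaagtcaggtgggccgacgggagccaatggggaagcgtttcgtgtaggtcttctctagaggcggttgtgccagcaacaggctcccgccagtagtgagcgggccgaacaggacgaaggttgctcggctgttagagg
Both strands were searched, and each 2-unit repeat is its own reverse complement. At least 1 of the 2-unit repeats was present in 15 of 43 member promoters (34.9%), against 15.9% of 33469 promoters of the same length. The 3-unit repeats (GAA, TTC and GAA, or TTC, GAA and TTC, each with any 2 bases between), which contain both 2-unit forms and are each other's reverse complement, were in Hspa8, Hspd1, Hspe1, Dnaja1 and Cct4 (11.6% of members, 0.798% of all promoters). The windows of Hspd1 and Hspe1 lie head to head on opposite strands and overlap, so they share their repeats. The endoplasmic reticulum stress element was in Hspa5 and Dnajc3 (4.65% of members, 0.0657% of all), and TGACGTGG, the core bound by factors of the unfolded protein response, was in Bag3 and Dnajc10 (4.65% of members, 0.595% of all). The Cct5 window held 1 repeat of 2 units, and the Dnajb9 window held none of these letters. Each match is a description of the letters in the window.

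The arrays had median spot signals of 95.5 to 324.7 units in Cy5 and 133 to 278 units in Cy3. Of the 82 member features 55 were well above background on all arrays. Of the 20 members with several features, 12 had all of them of the same sign, after rounding, at day 7 and 12 at day 21. The brightest feature of Hspa8 was saturated in Cy5 on 12 of the 20 arrays, that of Hspca on 6, and those of Hspcb and Hspe1 on 1 each. None was saturated in Cy3. Day 21 replicate 4 stood apart: its dye-swapped arrays had ratios correlated at -0.36 across genes, against 0.33 to 0.73 in the other animals, and its ratios spread over genes with an SD of 0.0651, against 0.155 to 0.239. Its member ratios lay between -0.14 and 0.12. Averaging arrays that run in opposite directions pulls a ratio toward 0, so values near 0 in this animal do not show that its cell types were alike, and every day 21 mean and count of animals below includes it unless stated otherwise. Whether a dye or sample label of this animal is wrong was not tested. The captured cells were checked against neuron markers, of which 10 of 12 measured genes were well above background on all arrays. Oligodendrocyte and astrocyte markers were measured too, 7 of 13 and 7 of 9 of them well above background on all arrays. In bulk RNA of this kind, fewer cells of a type and less RNA per cell cannot be told apart. The number of animals limits the precision, p-values measure the spread between animals, and an exact two-sided test with 5 animals cannot go below 0.0625.

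At day 7 the comparison asks how the chaperones of neurons that sprouted stood against those of neighbours that did not. Member ratios lay on both sides of 0: 24 were above and 28 below, between -0.23 and 0.28, with a median of -0.013 against -0.005 for all genes. No member passed an adjusted p of 0.05 in the limma fit (Benjamini-Hochberg over all genes, smallest 0.43), where 0.00301% of all genes passed. At an unadjusted p under 0.05 there were 3 members with a higher and 1 with a lower ratio. That is 7.69% of members against 9.5% of all genes, a share not above the background in this fit, but above it under median centring below. The 3 were Cct5, Hspcb and Bag4, and the 1 was Hspb3.

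At day 21 the members were centred on 0 as well. The ratios of 26 members were above and of 26 below 0, from -0.19 to 0.24, with a median of -0.001 that equalled that of all genes. No member passed either an adjusted p of 0.05 (smallest 0.836, 0% of all genes) or an unadjusted p of 0.05 in the limma fit (5.85% of all genes). Without day 21 replicate 4, the animal whose arrays disagreed, Bag5 was the 1 member at an unadjusted p under 0.05 (ratio 0.19, 6.56% of all genes), and none passed an adjusted p of 0.05. Over the mean of both days, 27 members were above and 25 below 0 with a median of 0.004. None passed an adjusted p of 0.05 (smallest 0.404, 0% of all genes), and 4 were higher at an unadjusted p under 0.05, 7.69% of members against 11.1% of all genes. These were Hspcb, Cct5, Bag5 and Hspca. The members with a 2-unit heat shock repeat had a median ratio of -0.01 at day 7 and 0.00 at day 21 (n = 15), and those without had 0.01 and 0.02 (n = 28). The 5 with a 3-unit repeat had -0.01 and 0.07, against -0.01 and 0.01 in the other 38.

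**Figure D1:**
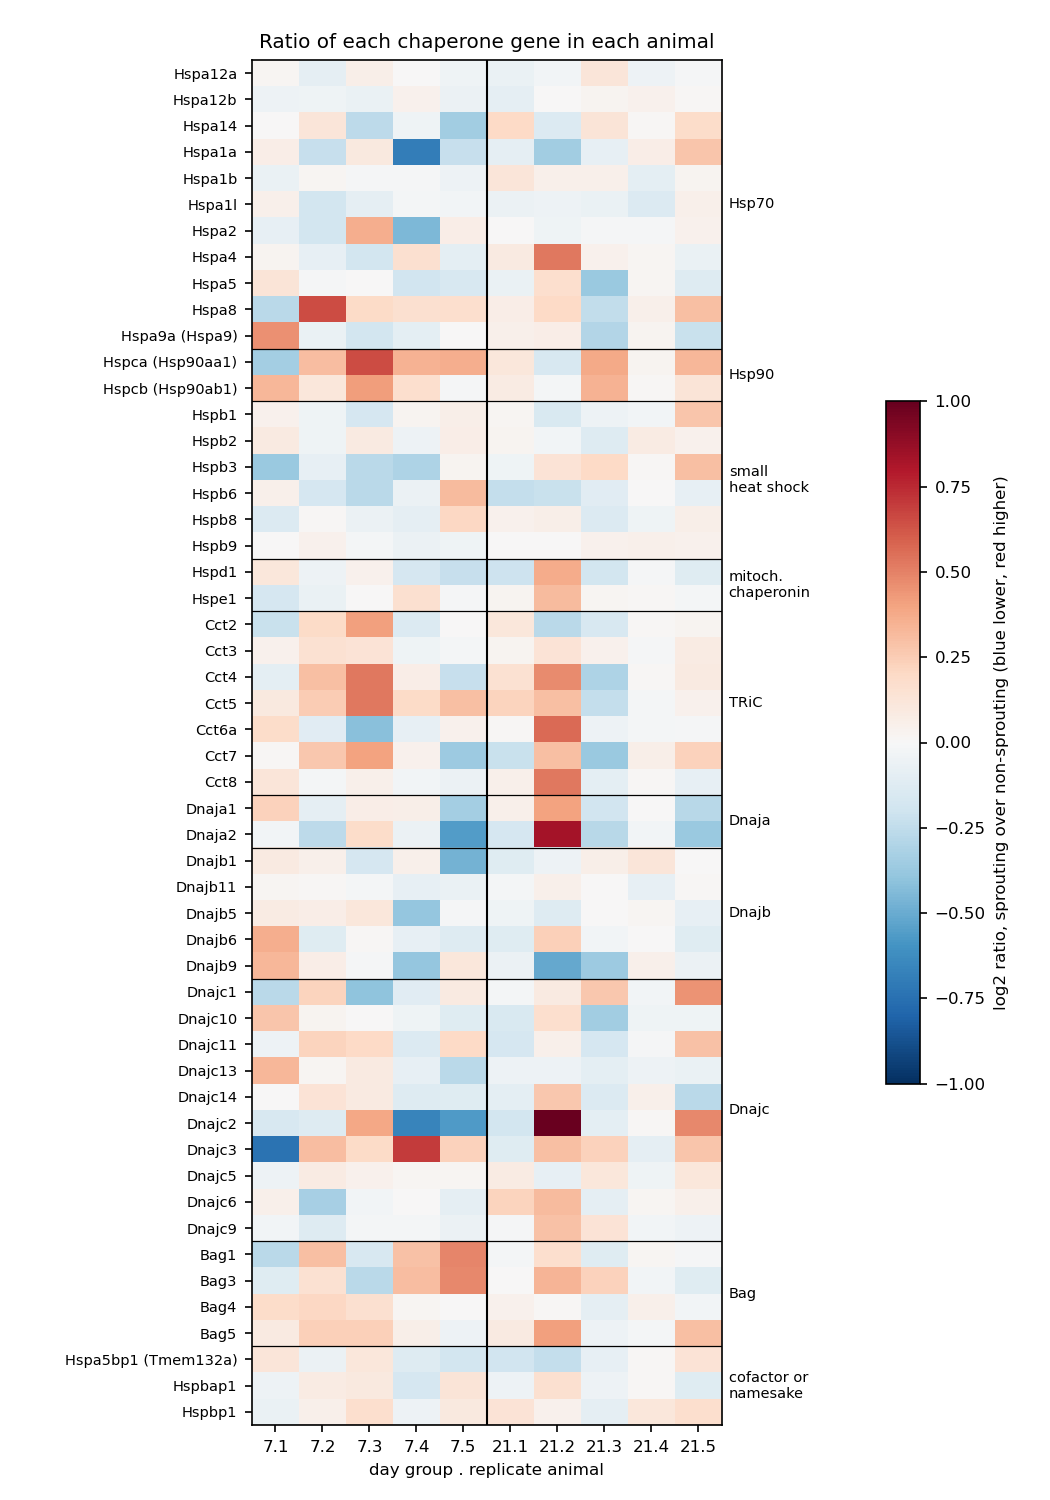
Log2 ratio of sprouting over non-sprouting neurons for the 52 chaperone genes (one line per gene, families separated by lines) in each of the 10 animals, day 7 replicates on the left and day 21 replicates on the right, with red for higher and blue for lower in sprouting neurons. Single animals stand out more than whole families: day 21 replicate 2 is red in 35 of 52 genes (15777 of 33210 over all genes). Day 21 replicate 4 is pale throughout, with 31 of 52 above 0.

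The 2 Hsp90 genes had the highest family median at both days, 0.236 at day 7 and 0.124 at day 21. Hspcb, now Hsp90ab1, encodes the constitutive cytosolic Hsp90. Its day 7 ratios were 0.33, 0.11, 0.42, 0.17 and -0.01 in replicates 1 to 5, and its day 21 ratios were 0.08, -0.02, 0.35, 0.01 and 0.13. Thus 4 of 5 animals were above 0 on each day, and the days overlapped. The mean at day 7 was 0.21 ± 0.172 (SD, n = 5), 1.15-fold, with unadjusted p = 0.0113 and adjusted p = 0.464. At day 21 it was 0.11 ± 0.147 (SD, n = 5) with adjusted p = 0.858. Over both days it was 0.16, with the smallest unadjusted p of all members, 0.00713, and adjusted p = 0.404. Its dimmer features gave 0.10 and 0.07 at day 7 and 0.00 and 0.02 at day 21, below the brightest one.

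Hspca, now Hsp90aa1, encodes the inducible cytosolic Hsp90. Its day 7 ratios were -0.34, 0.31, 0.65, 0.35 and 0.36, and its day 21 ratios were 0.11, -0.16, 0.38, 0.03 and 0.33. Only replicate 1 of day 7 and replicate 2 of day 21 were below 0. The mean was 0.27 ± 0.363 at day 7 (SD, n = 5, unadjusted p = 0.0507, adjusted p = 0.527) and 0.14 ± 0.219 at day 21 (SD, n = 5, adjusted p = 0.904). The mean of both days was 0.20 (unadjusted p = 0.0386, adjusted p = 0.436). All 4 features were above 0 on both days, at 0.27, 0.35, 0.18 and 0.46 on day 7 and 0.14, 0.22, 0.02 and 0.35 on day 21. Without day 7 replicate 1 the day 7 mean was 0.42, with unadjusted p = 0.000963 and adjusted p = 0.144. When arrays were centred on their median without loess, the day 7 ratio was 0.03 for Hspca and, with the sign turned, -0.03 for Hspcb.

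Among the 11 Hsp70 genes, 2 were above and 9 below 0 at day 7 (median -0.037), and 4 were above and 7 below at day 21 (median -0.004). None passed an unadjusted p of 0.05 on either day. Hspa8 is the constitutive Hsp70 that also strips clathrin from vesicles, and its promoter holds the 3-unit repeats shown above. Its ratios were -0.27, 0.65, 0.19, 0.16 and 0.17 at day 7 and 0.07, 0.20, -0.25, 0.05 and 0.30 at day 21. On each day 4 of 5 animals were above 0. The means were 0.18 ± 0.325 and 0.07 ± 0.208 (SD, n = 5), with adjusted p = 0.614 and 0.953. All 4 features were above 0 on both days, with 0.19, 0.19 and 0.39 on day 7 from the features that were never saturated. Under median centring without loess the day 7 ratio of the brightest feature was -0.06.

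Hspa1a encodes the inducible Hsp70. Its day 7 ratios were 0.07, -0.23, 0.10, -0.69 and -0.23, a mean of -0.20 ± 0.319 (SD, n = 5, unadjusted p = 0.11, adjusted p = 0.59). Its day 21 ratios were -0.09, -0.35, -0.08, 0.07 and 0.28, a mean of -0.03 ± 0.231. So 3 of 5 animals were below 0 on each day, and a dimmer feature of the gene gave 0.03 on both days. Hspa1b, a near-identical copy whose signal was close to background, had ratios of -0.07, 0.02, -0.01, -0.01 and -0.05 at day 7 and 0.12, 0.05, 0.05, -0.10 and 0.03 at day 21. Since the copies can cross-hybridise, their values are uncertain as separate genes. The stress marker thus showed no call in sprouting neurons on either day.

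Hspa5 is BiP, the Hsp70 of the endoplasmic reticulum. Its ratios were 0.13, -0.01, 0.00, -0.19 and -0.16 at day 7 and -0.07, 0.17, -0.37, 0.02 and -0.13 at day 21. The means of -0.05 ± 0.13 and -0.08 ± 0.199 (SD, n = 5) were smaller than the spread between animals. Hspa9a, now Hspa9, encodes mortalin, the Hsp70 of mitochondria. It stood at 0.46, -0.07, -0.18, -0.10 and 0.00 at day 7 and at 0.05, 0.07, -0.29, 0.03 and -0.22 at day 21. Only day 7 replicate 1 was far above the others. Hspa4 encodes an Hsp110-like exchange factor for Hsp70. Its ratios were 0.03, -0.08, -0.18, 0.16 and -0.10 at day 7 and 0.09, 0.53, 0.04, 0.02 and -0.07 at day 21, with means of -0.03 ± 0.129 and 0.12 ± 0.233. Its dimmer feature gave 0.04 and -0.03, the opposite sign on each day.

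The ribosome-associated Hspa14 stood at 0.00, 0.12, -0.26, -0.04 and -0.35 at day 7 and at 0.20, -0.14, 0.13, 0.01 and 0.18 at day 21. Its difference between the days was 0.18 (unadjusted p = 0.0963, adjusted p = 0.94). The other 4 Hsp70 genes, Hspa1l, Hspa2, Hspa12a and Hspa12b, had means between -0.06 and 0.00 on both days. Hspa2, a paralog best known from the testis, ranged from -0.45 to 0.36 between the day 7 animals and only from -0.04 to 0.04 between the day 21 animals.

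The J-domain genes had no member at an unadjusted p under 0.05 on either day. Their family medians at day 7 were -0.081 for Dnaja, -0.029 for Dnajb and 0.006 for Dnajc, and at day 21 they were -0.004, -0.008 and 0.051. Dnaja1 and Dnajb1 encode the main cytosolic partners of Hsp70, and the Dnaja1 promoter above holds a 3-unit repeat. Dnaja1 had ratios of 0.23, -0.09, 0.07, 0.06 and -0.34 at day 7 and 0.05, 0.40, -0.19, 0.00 and -0.28 at day 21, which gave means of -0.01 and 0.00. Dnajb1 had 0.09, 0.05, -0.17, 0.05 and -0.47 at day 7 and -0.12, -0.05, 0.06, 0.12 and 0.00 at day 21. Its mean was -0.09 ± 0.234 at day 7, and a dimmer feature gave 0.09. In both genes the animals of a day lay on either side of 0.

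Dnajb6 encodes a suppressor of polyglutamine aggregation. Its ratios were 0.36, -0.12, 0.01, -0.08 and -0.13 at day 7 and -0.12, 0.24, -0.03, 0.00 and -0.12 at day 21, with means of 0.00 and -0.01. Dnajb9 encodes ERdj4, a partner of BiP. It stood at 0.33, 0.07, -0.01, -0.39 and 0.11 at day 7 and at -0.06, -0.51, -0.36, 0.05 and -0.06 at day 21. The day 21 mean of -0.19 ± 0.236 (SD, n = 5) had unadjusted p = 0.0935 and adjusted p = 0.837, and 4 of 5 animals were below 0. Dnajb5 and Dnajb11 had means from -0.05 to -0.01, and Dnajb11 was close to background.

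Several Dnajc genes work at synapses. Dnajc5 encodes cysteine string protein, which guards release proteins at the synaptic vesicle. Its ratios were -0.05, 0.08, 0.04, 0.02 and 0.02 at day 7 and 0.08, -0.08, 0.11, -0.04 and 0.11 at day 21, within 0.11 of 0 in all 10 animals. Dnajc6 encodes auxilin, which recruits Hspa8 to clathrin coats in neurons. It had 0.05, -0.33, -0.03, 0.00 and -0.09 at day 7 and 0.22, 0.32, -0.09, 0.02 and 0.05 at day 21. The difference between the days was 0.18 (unadjusted p = 0.0759, adjusted p = 0.94), and 3 dimmer features gave -0.02, -0.03 and -0.06 at day 7 and 0.04, -0.02 and 0.10 at day 21.

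The widest spreads between animals were in other J-domain genes. Dnajc2, which acts at the ribosome, stood at -0.16, -0.13, 0.39, -0.66 and -0.57 at day 7 and at -0.18, 0.99, -0.10, 0.01 and 0.48 at day 21. Its means of -0.23 ± 0.418 and 0.24 ± 0.489 (SD, n = 5) were the lowest at day 7 and the highest at day 21 among all members, with adjusted p = 0.698 and 0.891. Dnaja2 had -0.03, -0.26, 0.18, -0.06 and -0.56 at day 7 and -0.17, 0.83, -0.28, -0.03 and -0.37 at day 21. In both genes replicate 2 held the highest day 21 value. Dnajc1, an endoplasmic reticulum membrane protein, had -0.27, 0.22, -0.40, -0.11 and 0.09 at day 7 and -0.02, 0.09, 0.27, -0.03 and 0.45 at day 21. The difference of 0.25 had unadjusted p = 0.0906 and adjusted p = 0.94. The remaining Dnajc genes other than Dnajc3, which are Dnajc9, Dnajc10, Dnajc11, Dnajc13 and Dnajc14, had means between -0.08 and 0.09 by their brightest features. A dimmer Dnajc9 feature gave 0.16 at day 7, where the brightest gave -0.05.

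All 4 Bag genes were above 0 at day 7 (median 0.115), and 3 of 4 were at day 21 (median 0.046). Under median centring without loess 2 of 4 were above 0 at day 7, with a median of 0.03. Bag4, also known as SODD, holds death receptors silent. Its ratios were 0.18, 0.21, 0.16, 0.02 and 0.00 at day 7 and 0.04, 0.01, -0.09, 0.05 and -0.03 at day 21. Replicates 1 to 3 of day 7 lay above all day 21 animals. The day 7 mean was 0.12 ± 0.0962 (SD, n = 5), above 0 in 5 of 5 animals before rounding, with unadjusted p = 0.012 and adjusted p = 0.467. The difference between the days was -0.12 (SE 0.0537, unadjusted p = 0.0504, adjusted p = 0.94). With the scanner software's processed signals, which were centred on their median, the day 7 mean was 0.33.

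Bag5 differs from other Bag proteins in carrying several Bag domains, and it inhibits Hsp70 and the ubiquitin ligase parkin. Its ratios were 0.09, 0.24, 0.24, 0.06 and -0.05 at day 7 and 0.09, 0.41, -0.05, -0.02 and 0.30 at day 21. The day 21 mean of 0.15 ± 0.2 (SD, n = 5) had the smallest p of all members on that day, 0.0614 unadjusted and 0.836 adjusted. Over both days it was 0.13 (unadjusted p = 0.0236, adjusted p = 0.418), and 7 of 10 animals were above 0.

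Bag1 releases clients toward the proteasome, and Bag3 hands them to autophagy. Bag1 stood at -0.27, 0.30, -0.16, 0.29 and 0.49 at day 7 and at -0.02, 0.17, -0.12, 0.02 and -0.01 at day 21. Bag3 stood at -0.12, 0.15, -0.27, 0.31 and 0.48 at day 7 and at 0.00, 0.34, 0.23, -0.03 and -0.12 at day 21. Dnajc3, the endoplasmic reticulum cochaperone also called P58IPK, stood at -0.74, 0.31, 0.19, 0.70 and 0.23 at day 7 and at -0.12, 0.30, 0.23, -0.09 and 0.28 at day 21. In these 3 genes the day 7 spread between animals, with SDs of 0.326, 0.305 and 0.53, was wider than the means of 0.13, 0.11 and 0.14. The median ratio of 13 oligodendrocyte markers at day 7 was -0.34, 0.20, -0.05, 0.75 and 0.92 in replicates 1 to 5, with 3, 11, 5, 13 and 13 genes above 0. The signs of Bag1 and Bag3 were those of this median in all 5 animals, and the sign of Dnajc3 in 4. At day 21 the marker median was 0.46, -0.23, -0.30, 0.02 and -0.11, and the match did not extend to that day: Bag3 had the opposite sign in replicates 2, 3 and 4, Bag1 in replicates 1 and 2, and Dnajc3 in all 5. The median of 10 microglia markers had the same signs at day 7, at -0.16, 0.33, -0.22, 0.09 and 0.09. The day 7 match was thus not particular to oligodendrocyte markers. A match in 4 animals was not particular to Dnajc3 either, since Hspca, Hspa8 and Dnajc5 also had one at day 7. How many members, or how many of all genes, match in this way was not counted. The part of either cell type in these ratios was not tested.

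Of the 6 small heat shock genes, 5 were below 0 at day 7 (median -0.015) and 3 at day 21 (median 0.006). Hspb3, a small heat shock protein best known from muscle and motor nerve, was the only member with a difference between the days at an unadjusted p under 0.05. Its day 7 ratios were -0.37, -0.08, -0.27, -0.31 and 0.03, and its day 21 ratios were -0.04, 0.14, 0.20, 0.01 and 0.30. Thus 4 of 5 animals were below 0 at day 7 and 4 of 5 above 0 at day 21, with an overlap of replicate 5 of day 7 with replicates 1 and 4 of day 21. The mean was -0.20 ± 0.17 at day 7 (SD, n = 5, unadjusted p = 0.011, adjusted p = 0.464) and 0.12 ± 0.137 at day 21 (SD, n = 5, unadjusted p = 0.0825, adjusted p = 0.836). The difference was 0.33 (SE 0.0916, unadjusted p = 0.00506, adjusted p = 0.94). With scan date as a block it was 0.31 (unadjusted p = 0.013). Within the 3 scan dates that held both days it was 0.26, 0.14 and 0.62. These set 1 day 7 animal against 2, 2 and 1 day 21 animals, each animal dated by its first array. On the first date the day 7 animal was replicate 3, whose arrays were scanned on 2 dates. Day 21 replicate 4, whose arrays disagreed, was on that date too. With the scanner software's processed signals the difference was 0.79, and without day 21 replicate 4 it was 0.35.

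Hspb1, also called Hsp27, is induced in neurons and glia after injury and guards actin. Its ratios were 0.04, -0.04, -0.17, 0.03 and 0.06 at day 7 and 0.02, -0.15, -0.05, -0.03 and 0.28 at day 21, with means of -0.01 and 0.01. Hspb8, the partner of Bag3, had -0.14, 0.01, -0.06, -0.09 and 0.21 at day 7 and 0.04, 0.06, -0.14, -0.04 and 0.06 at day 21, with means of -0.01 and 0.00. Hspb6 had -0.24, -0.22, -0.11, 0.00 and -0.08 at day 21, a mean of -0.13 ± 0.0992 (SD, n = 5, unadjusted p = 0.104, adjusted p = 0.845). Hspb2, close to background, and Hspb9 had means from -0.01 to 0.03.

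Hspd1 and Hspe1 encode Hsp60 and its lid Hsp10 and are transcribed from the shared promoter region shown above. Hspd1 stood at 0.11, -0.05, 0.04, -0.17 and -0.23 at day 7 and at -0.21, 0.37, -0.18, -0.01 and -0.12 at day 21. Hspe1 stood at -0.17, -0.07, 0.00, 0.16 and -0.01 at day 7 and at 0.03, 0.32, 0.02, 0.01 and -0.02 at day 21. In day 7 replicates 1 and 4 the genes of this pair had opposite signs, and in day 21 replicate 2 both were highest. The means were -0.06 and -0.03 for Hspd1 and -0.02 and 0.07 for Hspe1. The dimmest of the 4 Hspd1 features gave 0.21 and 0.44, unlike the others, which lay between -0.06 and 0.04. Under median centring without loess the day 7 ratios were -0.26 for Hspd1 and -0.25 for Hspe1.

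Of the 7 TRiC subunits, 6 were above 0 at day 7 (median 0.055) and 5 at day 21 (median 0.06), but 1 of 7 was above 0 at day 7 under median centring without loess, with a median of -0.15. Cct5 had the largest ratio and the smallest p of all members at day 7. Its ratios were 0.10, 0.25, 0.53, 0.19 and 0.30 at day 7 and 0.22, 0.30, -0.24, -0.02 and 0.04 at day 21. All 5 day 7 animals and 3 of 5 day 21 animals were above 0. The day 7 mean was 0.28 ± 0.162 (SD, n = 5), 1.21-fold, with unadjusted p = 0.00502 and adjusted p = 0.43. At day 21 it was 0.06 ± 0.212, and the difference of -0.22 had an SE of 0.11 (unadjusted p = 0.0766, adjusted p = 0.94). The dimmer Cct5 feature gave 0.20 and 0.06. Median centring without loess gave 0.12 at day 7. When the 20 arrays were fitted with the animal as a random block, Cct5 passed at day 7 (adjusted p = 0.0257) and over both days (adjusted p = 0.0492), where 1.22% and 1.55% of all genes passed. Both arrays of an animal hold the same RNA, so that fit rests on the estimated correlation between them.

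The other TRiC subunits did not share the Cct5 pattern in each animal. Cct4 stood at -0.10, 0.30, 0.53, 0.07 and -0.23 at day 7 and at 0.15, 0.47, -0.31, 0.01 and 0.09 at day 21. Cct7 stood at 0.01, 0.27, 0.40, 0.04 and -0.36 at day 7 and at -0.22, 0.30, -0.37, 0.06 and 0.23 at day 21. Cct2 stood at -0.22, 0.19, 0.41, -0.14 and 0.00 at day 7 and at 0.11, -0.27, -0.16, 0.01 and 0.03 at day 21. In day 7 replicates 2 and 3 these subunits and Cct5 were all above 0, at 0.19 to 0.53, while replicate 5 divided them. Cct3 had 0.04, 0.15, 0.14, -0.04 and -0.02 at day 7 and 0.03, 0.14, 0.04, -0.01 and 0.08 at day 21, with a mean over both days of 0.06 (unadjusted p = 0.0592) that turned to -0.07 under median centring without loess. Cct6a had 0.18, -0.11, -0.42, -0.08 and 0.04 at day 7 and 0.01, 0.57, -0.05, -0.02 and -0.01 at day 21. Cct8 had 0.12, -0.02, 0.05, -0.03 and -0.06 at day 7 and 0.05, 0.53, -0.10, 0.01 and -0.08 at day 21. By these brightest features, the day 21 means of Cct6a and Cct8 rested on replicate 2. A dimmer Cct8 feature gave 0.14 at day 7 and 0.15 at day 21, with 4 animals above 0 on each day. A dimmer Cct3 feature gave 0.12 and 0.13. The Hsp70 exchange factor Hspbp1, the Hspb1-binding Hspbap1 and Hspa5bp1 (now Tmem132a) had means between -0.07 and 0.07.

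**Figure D2:**
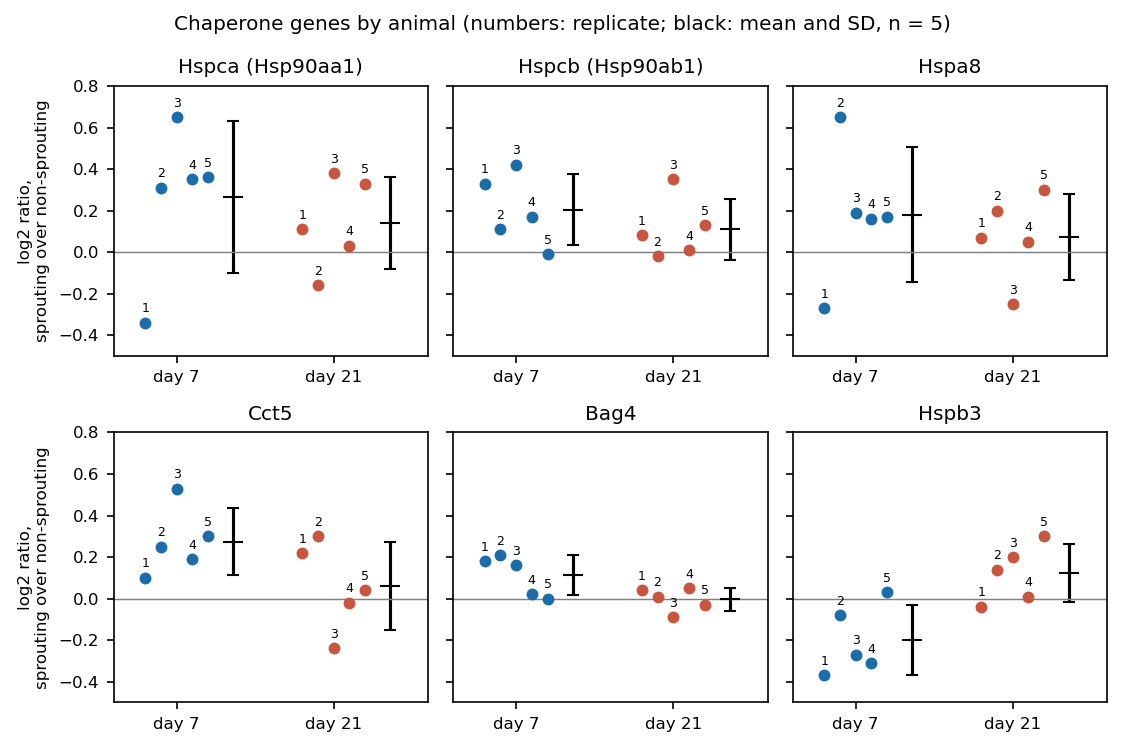
Log2 ratio of sprouting over non-sprouting neurons in each animal (points, numbered by replicate) at day 7 and day 21 for 6 chaperone genes, with black bars for the mean and SD of 5 animals. Cct5 is above 0 in all 5 day 7 animals, day 7 replicate 1 is the low point of Hspca (-0.34) and Hspa8 (-0.27), and Hspb3 lies mostly below 0 at day 7 and mostly above it at day 21; under median centring without loess the day 7 means of Hspcb and Hspa8 turned to -0.03 and -0.06.

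The normalization changed the members' values at day 7. Under median centring without loess, which sets the median of each array to 0, the members' median ratio was -0.078, against -0.013 with loess. At an unadjusted p under 0.05 that setting had 0 members higher and 9 lower. That is 9 of 52 members, against 9.32% of all genes in both directions together. Under this setting the share of members was thus above the background, unlike with loess. The authors' deposited ratios gave day 7 values of 0.27 for Hspca, 0.21 for Hspcb, 0.18 for Hspa8 and 0.28 for Cct5, equal to those from loess. Hspa1a and Hspb3 stayed below 0 under all 4 of the normalizations plotted, and Cct5 and Bag4 stayed above.

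**Figure D3:**
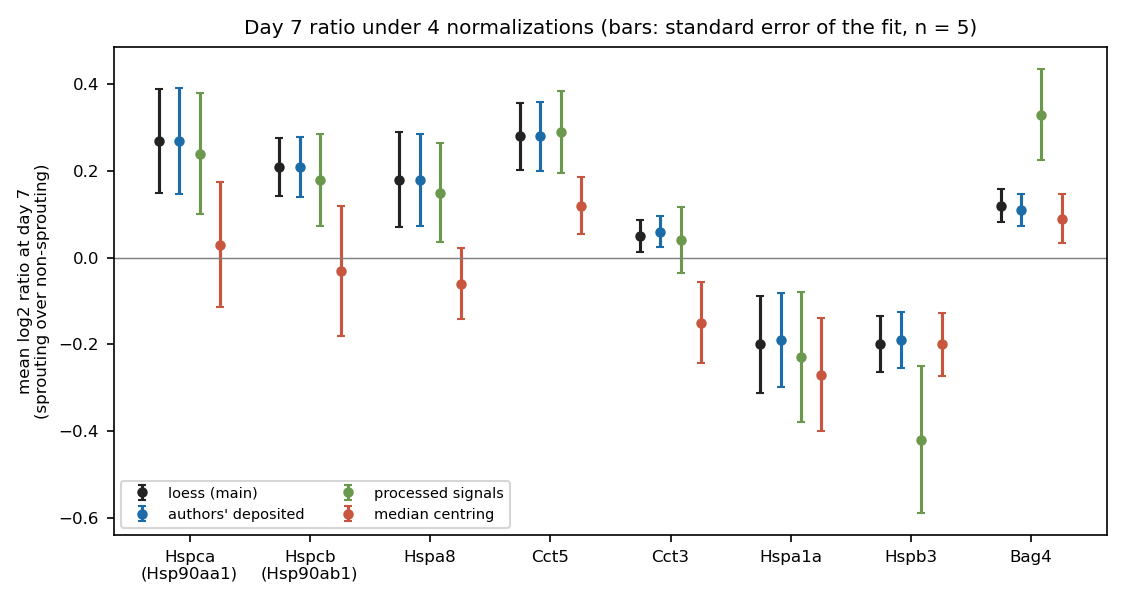
Mean day 7 log2 ratio (vertical axis) of 8 chaperone genes under loess, the authors' deposited ratios, the scanner software's processed signals and median centring without loess, with bars for the standard error of the fit over 5 animals. Loess and the deposited ratios lie together, while median centring puts Hspcb (-0.03), Hspa8 (-0.06) and Cct3 (-0.15) below 0.

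One animal held many of the highest day 21 values. Day 21 replicate 2 held the highest day 21 ratio in 27 of 52 members (51.9%), where it held the highest in 23.6% of all genes. In that animal 35 of 52 members were above 0, with a median of 0.08, against 15777 of 33210 and a median of -0.01 for all genes. Its ratios over all genes had the widest spread of the 10 animals, with an SD of 0.239. The members there ranged from -0.51 for Dnajb9 to 0.99 for Dnajc2. The genes with a ratio above 0.5 there were Dnajc2, Dnaja2, Cct6a, Cct8 and Hspa4. Its 2 arrays had the highest correlation of the day 21 animals. The oligodendrocyte markers of this animal had a median of -0.23 and the neuron markers one of 0.14, and their part in the member values was not tested. Whether this animal differed from the other 4 cannot be tested with 1 animal.

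The difference of day 21 minus day 7 in the ratio was above 0 in 28 members and below in 24 (median 0.002). No member passed an adjusted p of 0.05 in limma (smallest 0.94, 0% of all genes). At an unadjusted p under 0.05 there was 1, Hspb3, which is 1.92% of members against 4.07% of all genes.

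The arrays also gave the level of each gene within a cell type, as log2 intensity after normalization between arrays, and these compare day 21 with day 7 in 5 against 5 separate animals. In sprouting neurons 26 members were higher and 26 lower at day 21 (median 0.002, all genes -0.054), and in non-sprouting neurons 24 were higher and 28 lower (median -0.026, all genes -0.052). No member passed an adjusted p of 0.05 in limma in either cell type (0% of all genes in each). At an unadjusted p under 0.05 there was 1 member in each, against 8.97% and 9.19% of all genes. It was Dnajb9 both times.

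Dnajb9 levels in sprouting neurons were 9.22, 9.48, 9.02, 9.01 and 9.39 at day 7 and 8.04, 8.21, 8.37, 8.66 and 8.58 at day 21. In non-sprouting neurons they were 8.89, 9.41, 9.03, 9.40 and 9.28 at day 7 and 8.10, 8.72, 8.73, 8.61 and 8.63 at day 21. All day 21 animals lay below all day 7 animals in both cell types, as in 1.32% and 1.38% of all genes, and Dnajb9 was the only member of which this held in either. The mean difference was -0.85 in sprouting neurons (SE 0.151, unadjusted p = 0.000155, adjusted p = 0.303), 1.81-fold lower, and -0.64 in non-sprouting neurons (SE 0.156, unadjusted p = 0.00175, adjusted p = 0.46), 1.56-fold lower. Both cell types of an animal share its arrays, so these are not independent results. A dimmer feature gave -0.21 and -0.22. Within the 3 scan dates that held both days the differences were -0.68, -1.09 and -0.43 in sprouting and -0.68, -0.55 and -0.77 in non-sprouting neurons. These too set 1 day 7 animal against 2, 2 and 1 day 21 animals, with the limits of the first date given for Hspb3. With scan date as a block the differences were -0.76 (unadjusted p = 0.00786) and -0.66 (unadjusted p = 0.00428).

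Other members differed less between the days. BiP, the Hsp70 with which ERdj4 works, had differences of -0.04 and -0.01 in sprouting and non-sprouting neurons. Hspa1a levels in non-sprouting neurons were 9.06, 8.86, 8.74, 8.67 and 8.08 at day 7 and 8.39, 8.61, 8.59, 7.87 and 7.85 at day 21, a difference of -0.42 (unadjusted p = 0.0775, adjusted p = 0.545) with overlap between the days. In sprouting neurons the difference was -0.26, and the dimmer feature gave 0.09 and 0.08 in sprouting and non-sprouting neurons. The next smallest p in sprouting neurons belonged to Hspa2, at 0.45 (unadjusted p = 0.0999, adjusted p = 0.567), Hspa1l, at -0.22, and Cct2, at -0.28. In non-sprouting neurons they belonged, after Hspa1a, to Dnajc6, at -0.21 (unadjusted p = 0.0921), and Hspb9, at -0.25 (unadjusted p = 0.0987). Glial markers differed between the days as well. In sprouting neurons 9 of 13 oligodendrocyte markers (median -0.693) and 5 of 9 astrocyte markers (median -0.373) were lower at day 21 at an unadjusted p under 0.05 (2210 of 33210 over all genes). In non-sprouting neurons 0 of 13 (median -0.173) and 0 of 9 (median -0.217) were (2284 of 33210). None passed an adjusted p of 0.05 in limma. The difference between the days in the ratio sets the cell types against each other directly. It was below 0 in 12 of 13 oligodendrocyte markers (median -0.346) and in 8 of 9 astrocyte markers (median -0.124). Over all genes it was below 0 in 15787 of 33210 (median 0.004). At an unadjusted p under 0.05 it was below 0 in 1 of 13 and 1 of 9 (571 of 33210 over all genes). The part of glial cells in the member levels was not tested.

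**Figure D4:**
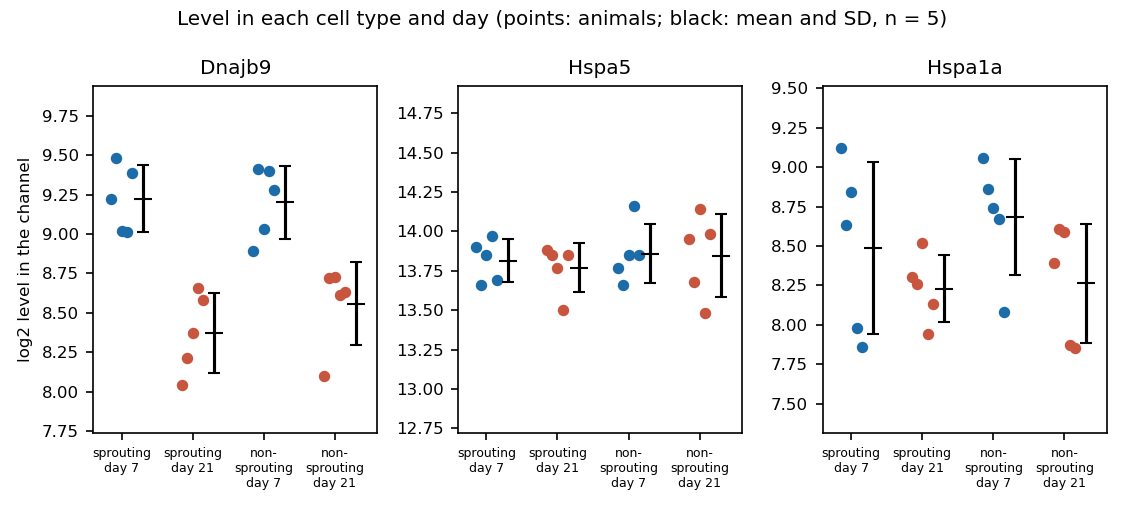
Log2 level of Dnajb9, Hspa5 and Hspa1a in sprouting and non-sprouting neurons at day 7 and day 21 (points are animals, black bars the mean and SD of 5), each panel on its own axis since levels of different probes are not comparable. For Dnajb9 the day 21 animals lie below the day 7 animals in both cell types, while for Hspa5 and Hspa1a the days overlap.

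A wider list of 64 measured cochaperones, folding enzymes and stress regulators outside the members was compared in the same way. At day 7 there were 3 higher and 1 lower at an unadjusted p under 0.05 (6.25%, all genes 9.5%), at day 21 2 higher and 1 lower (4.69%, all genes 5.85%), and in the difference 0 higher and 2 lower (3.12%, all genes 4.07%). None passed an adjusted p of 0.05 in limma. The median was 0.017 at day 7 and -0.015 at day 21.

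The stress regulators came first in that list. Ddit3, also called CHOP, is a transcription factor induced by endoplasmic reticulum stress. It stood at 0.15, 0.39, 0.01, 0.14 and 0.28 at day 7, above 0 in all 5 animals, and at 0.11, -0.13, -0.10, 0.03 and 0.08 at day 21. The day 7 mean was 0.19 ± 0.146 (SD, n = 5, unadjusted p = 0.00543, adjusted p = 0.43), and with 20 arrays and the animal as a random block the adjusted p was 0.0492. The difference between the days was -0.20 (unadjusted p = 0.0293, adjusted p = 0.94). Sirt1, a deacetylase that keeps Hsf1 on DNA, was at 0.15 at day 7 (unadjusted p = 0.0479) with 5 of 5 animals above 0. Hsf1 itself had means of 0.01 and -0.09, and Atf4 had 0.09 and -0.01. Stub1, a ubiquitin ligase that acts on Hsp70 clients, had ratios of 0.04, 0.08, -0.02, -0.21 and -0.17 at day 7 and -0.18, -0.07, -0.12, 0.00 and 0.07 at day 21, with a mean of -0.06 on both days (unadjusted p = 0.29 and 0.247). Xbp1 was not analysed here.

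Of the folding enzymes, calreticulin (Calr), a lectin chaperone of the endoplasmic reticulum, had ratios of -0.02, 0.17, 0.24, 0.35 and 0.59 at day 7 and 0.06, 0.35, 0.74, -0.05 and 0.42 at day 21. It was above 0 in 4 of 5 animals on each day, with means of 0.27 ± 0.227 (SD, n = 5, unadjusted p = 0.0338, adjusted p = 0.505) and 0.30 ± 0.31 (SD, n = 5, unadjusted p = 0.0192, adjusted p = 0.836). Its partner in the glycoprotein cycle, Ugcgl1 (now Uggt1), was at 0.08 at day 21 (unadjusted p = 0.036). Sdf2l1, a stress-induced component of the BiP complex, had a difference between the days of -0.32 (SE 0.111, unadjusted p = 0.0172, adjusted p = 0.94), and Pdia4, a disulfide isomerase, one of -0.19 (unadjusted p = 0.0745). Tra1 (now Hsp90b1), the Hsp90 of this compartment, had means of 0.03 and 0.10, and Hyou1, its large Hsp70, 0.07 and 0.03. Over time, 2 genes of the wider list were higher and 6 lower at day 21 in sprouting neurons at an unadjusted p under 0.05 (12.5%, all genes 8.97%), and 2 were higher and 2 lower in non-sprouting neurons (6.25%, all genes 9.19%). Of its 15 folding enzymes of the endoplasmic reticulum, 2 were higher and 2 lower in sprouting neurons (26.7%, all genes 8.97%). In non-sprouting neurons 2 were higher and 1 lower (20%, all genes 9.19%). Chosen after their values were seen, Sdf2l1 in sprouting neurons was at -0.68 between day 21 and day 7 (unadjusted p = 0.00252, adjusted p = 0.384) and Ddit3 at -0.38 (unadjusted p = 0.00957, adjusted p = 0.466). Both were on the same side as Dnajb9, whereas Calr was at 0.53 (unadjusted p = 0.0124, adjusted p = 0.478). Of 11 unfolded protein response factors, Ddit3 among them, 9 were below 0 in sprouting (median -0.172) and 7 in non-sprouting neurons (median -0.179). Over all genes 19593 and 19771 of 33210 were below 0 (medians -0.054 and -0.052).

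Partners of Hsp90 and TRiC had small ratios. Stip1, which links Hsp70 to Hsp90, had means of 0.08 and -0.06 and a difference of -0.14 (unadjusted p = 0.0646). The myosin chaperone Unc45a was at -0.15 at day 21 (unadjusted p = 0.0238), which turned to 0.03 with the processed signals. Tcp1, the first TRiC subunit, had 0.09 and 0.08. Of the prefoldins, which pass actin and tubulin to TRiC, Pfdn1 was at -0.09 at day 7 (unadjusted p = 0.0234, below 0 in 5 of 5 animals) and Ke2 (now Pfdn6) at 0.15 at day 21 (unadjusted p = 0.0514). Cryab, a small heat shock protein abundant in oligodendrocytes, had the widest spread: -0.35, 0.27, -0.94, 1.55 and 1.70 at day 7 and 0.43, -0.54, 0.04, -0.01 and -0.71 at day 21. Its sign was that of the oligodendrocyte marker median in all 5 day 7 animals and in day 21 replicates 1, 2 and 5, and it was the opposite in day 21 replicates 3 and 4. The microglia marker median had those same signs at day 7.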

How the data were processed

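Each animal gave 2 dye-swapped arrays. The deposited scanner files, made with Agilent Feature Extraction per the submitters' processing notes, hold spot intensity and local background in both channels and, per the file headers, processed signals. The authors also deposited log2 ratios, Cy5 over Cy3 by their match to the scanner files (r of at least 0.987), with column medians of 0.00162 to 0.0127. How these were normalized is not given in the sources used here. Of the deposited columns 20 served as an alternative (75 values missing) and 20 were not used.

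Intensity was corrected by normexp (offset 50), normalized by loess within arrays, with 2256 control spots at weight 0, and averaged per animal. A feature was kept when a share of at least 0.5 of the arrays of 1 cell type and day had it well above background, and when 3 or more animals of each day had a value. The brightest feature stood for a gene, and near-identical genes may cross-hybridise. Ratios were tested with limma 3.58.1 in R 4.3.3 (lmFit and eBayes, both days in a single fit, two-sided, Benjamini-Hochberg over 33210 genes), and levels after Aquantile normalization. The fit was also run on simulated day 7 ratios, with independent noise of each gene's own spread and changes equal in all animals. There 57% of 100 genes changed by 0.3 and 88% of 100 genes changed by 0.6 (log2) passed. Real ratios need not follow that setting, so these shares do not show how many real changes were missed.

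The members and lists were chosen with earlier results of these data known. Values per animal are given for a fixed set of well-known members and those with the smallest unadjusted p, 6 per comparison of ratios and 4 per cell type over time. The wider list was named likewise, with 4 per day and difference. Dnajc2, Dnaja2 and Dnajc3 were singled out after their spread was seen. Alternatives covered background, normalization, filter, feature of a gene, moderation, weights, blocks, threshold and each animal left out.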

Additional observations from a re-analysis of the deposited data

Results flagged for a closer look

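Of 72 groups of 5 member ratios and 28 groups of 5 member levels, 7 held 1 animal far from the other 4, where chance marks about 1 group in 20. Most of the ratios were in day 21 replicate 2. Cct6a was at 0.57 there (the others at -0.05 to 0.01), Cct8 at 0.53 (-0.10 to 0.05), Hspa4 at 0.53 (-0.07 to 0.09) and Hspe1 at 0.32 (-0.02 to 0.03). Day 7 replicate 1 held the other 2 ratios, with Dnajb6 at 0.36 (the others at -0.13 to 0.01) and Hspa9a at 0.46 (-0.18 to 0.00). The level of Dnajb9 in non-sprouting neurons of day 21 replicate 1 was 8.10, below the other day 21 animals at 8.61 to 8.73. No member had ratios of one sign in every day 7 animal and of the opposite sign in every day 21 animal.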

How the results depend on the processing

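No member passed an adjusted p of 0.05 in any comparison under the alternatives run, except Cct5 in the fit of single arrays, 20 in all, with a random block for the animal (1 member at day 7 and 1 over both days). Leaving out each animal in turn kept that count at 0 throughout. The smallest adjusted p of a member ranged over the alternatives from 0.0257 to 0.934 at day 7, 0.485 to 1 at day 21, 0.0492 to 0.569 over both days, 0.303 to 1 in the difference, 0.172 to 1 in sprouting and 0.171 to 0.999 in non-sprouting neurons over time.

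Counts at an unadjusted p under 0.05 were 4 at day 7, 0 at day 21, 4 over both days, and 1 each in the difference and in sprouting and non-sprouting neurons over time. The day 7 count was 9 of 52 members under median centring without loess (9.32% of all genes). The day 21 count was 2 with processed signals (7.38% of all genes), 2 with median centring (5.11%) and 1 with the mean of all probes (5.89%). It was 1 with array weights, 2 with each day fitted alone and 3 with 20 arrays. The difference had 2 without background subtraction (3.94% of all genes), 4 with median centring (3.2%), 2 with the deposited ratios (4.32%) and 2 with the mean of all probes (4.16%). It had 2 without a filter, 2 with array weights, 6 with 20 arrays and 3 with scan date as a block. At day 7 the fit of 20 arrays raised calls over all genes too, to 1.22% at an adjusted p of 0.05 in limma against 0.00301% in the main fit. Some counts, here and for the replicate block below, have no share over all genes beside them. Those counts are not read as results about the members. Scan date as a block, chosen for levels after seeing the data, gave 2 in each cell type over time. With an animal left out the counts ran from 4 to 8 at day 7 (8 without day 7 replicate 1), 0 to 2 at day 21 (2 without day 21 replicate 3), 2 to 7 over both days (7 without day 7 replicate 1, 2 without day 7 replicate 2 or 3), 1 to 4 in the difference (4 without day 7 replicate 4), 1 to 3 in sprouting (3 without day 21 replicate 5) and 1 to 5 in non-sprouting neurons (5 without day 7 replicate 5).

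The members' median ratio at day 7 was -0.078 under median centring, and leaving out an animal moved it between -0.030 and 0.013, and the day 21 median between -0.002 and 0.030. Of 86 single-gene values printed as other than 0, 31 turned sign in at least 1 alternative, 16 of them under median centring and 17 with an animal left out. These included Cct3 over both days (-0.07) and Hspcb at day 7 (-0.03) under median centring, and Unc45a at day 21 (0.03) with processed signals. Among the other members with a ratio of at least 0.1 in size, median centring turned Hspa8 (-0.06), Bag1 (-0.02), Bag3 (-0.01) and Cct4 (-0.04) at day 7 and Hspa4 (-0.01) at day 21, and leaving out day 21 replicate 2 turned Cct6a at day 21 (-0.02). The cause was not tested. Saturation limits Hspa8 and Hspca, and signal near background limits Hspa1b, Hspb2 and Dnajb11.

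Replicate numbers recur in both cohorts, but the cohorts were separate, and the correlations of same-numbered deviations across genes were -0.19, -0.09, -0.11, 0.00 and -0.13. With the replicate block the counts at an unadjusted p under 0.05 were 5 at day 7, 1 at day 21, 4 over both days, 1 in the difference, 1 in sprouting and 3 in non-sprouting neurons, and 0 members passed an adjusted p of 0.05.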
